A study of Mus musculus with 4 samples.

Results

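Cycling tumour macrophages are macrophages caught while copying their DNA or dividing inside a tumour. Here they were the barcodes that carried at least 10 unique molecules (UMIs) of the complement genes C1qa, C1qb and C1qc in sum and at least 2 UMIs of the proliferation genes Mki67 and Top2a in sum. They also held 500 or more UMIs, 250 or more genes and no more than 10% of UMIs from mitochondrial genes, with no more than 2 UMIs of Cd3d, Cd3e and Cd3g and no more than 2 of Cd79a, Cd79b and Ms4a1. The rule found 217 barcodes among 15319 called barcodes. Of these, 210 came from Jagged1/PyMT tumours and 7 from PyMT tumours. They were set against the 1546 barcodes that met the same rule but held no Mki67 or Top2a UMI, 1399 from Jagged1/PyMT and 147 from PyMT. A further 160 barcodes held exactly 1 such UMI and belonged to neither class. The members were thus chosen by their UMIs of these measured genes, and differences in Mki67, Top2a, the C1q genes and everything that goes with them are described without a test.

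The immune cells were sorted by FACS out of mammary tumours (strain FVB/NJ, age 12 weeks) and were profiled by droplet 3′ single-cell RNA sequencing (10x Genomics). One genotype was Jagged1/PyMT and its reference was PyMT, so both carried the polyoma middle T oncogene that drives mammary tumours. The labels name neither the promoter behind either transgene nor the number of animals. They list 2 samples of each genotype, but both lie in 1 matrix that does not say which sample a barcode came from, so each genotype was 1 library and every interval below covers counting error only.

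Macrophages in a tumour are renewed by monocytes from the blood and by division on the spot, and growth through the receptor Csf1r is known to drive that division. A dividing cell passes D-type cyclins with Cdk4 or Cdk6, then cyclin E with Cdk2, copies its DNA while it makes histones, and enters mitosis with cyclin B and Cdk1. Genes of the replication stage are known targets of E2F factors, and many genes of mitosis are switched through the DREAM and MMB complexes at promoter elements called CHR and CCAAT.

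The 2 libraries held 55506773 UMIs (Jagged1/PyMT) and 36012036 UMIs (PyMT), of which 3.70% and 3.14% lay in barcodes under 100 UMIs and were read as free RNA. Between the libraries, 70 called barcodes were shared in sequence, 1 of them in the C1q gate and 0 among the cycling barcodes. The macrophage label was checked against markers. In Jagged1/PyMT, Csf1r was seen in 205 of 210 cycling barcodes (97.6%) and in 1219 of 1399 non-cycling ones (87.1%), against 2.69% of the 2490 barcodes of the T cell gate, which serves as the background. The median UMI count was 16152, 6674 and 3846.5 in those classes. The T cell gate asked for at least 3 UMIs of the Cd3 genes and no more than 2 C1q UMIs, so its low Csf1r share was favoured in advance. At a like depth, 4 of 36 cycling barcodes of the T cell gate held Csf1r (11.1%, median 15897.5 UMIs). Among the cycling barcodes the lysosomal glycoprotein Cd68 was seen in 96.7%, Adgre1 (the F4/80 antigen) in 72.9% and the Fc receptor Fcgr1 in 71.9%. Their C1q sum ranged between 10 and 695 with a median of 169.5 UMIs, and 4 of the 210 held fewer than 20. T cell receptor transcripts were nearly missing, with Trac in 6 and Trbc2 in 10 of the 210 barcodes. The limit of the rule on the Cd3 genes favoured this in advance, so it is not a separate check. All 7 PyMT cycling barcodes held Csf1r, Adgre1 and Cd68.

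Cycling barcodes made up a larger part of the macrophages in Jagged1/PyMT tumours than in PyMT tumours. But the sequencing depth of the barcodes moved with that difference, and the T and B cell gates differed in the same direction. Of the C1q gate, 210 of 1761 barcodes were cycling in Jagged1/PyMT (11.9%, exact 95% interval 10.4 to 13.5), and 7 of 162 in PyMT (4.32%, 1.75 to 8.70). The ratio of the shares was 2.76 (1.32 to 5.76). The summed level of Mki67 and Top2a over the whole gate was 148 counts per 1000000 UMIs (CPM; interval 142 to 154) in Jagged1/PyMT and 64.5 CPM (49.6 to 82.6) in PyMT, a ratio of 2.29 (1.79 to 2.996). Of all called barcodes, cycling macrophages were 2.67% in Jagged1/PyMT and 0.0940% in PyMT. The C1q gate itself took 22.4% and 2.18% of the called barcodes. The same Mki67 and Top2a rule was met by 1.45% of the T cell gate in Jagged1/PyMT and 0.682% in PyMT, by 0.468% and 0.216% of the B cell gate, and by 0 of 160 and 0 of 60 barcodes of the neutrophil gate.

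The cycling share climbed with the UMIs of a barcode, which reflect both sequencing depth and the RNA content of a cell, and these cannot be told apart. In Jagged1/PyMT, the cycling share was 3 of 197 barcodes (1.52%) under 2000 UMIs, 11 of 442 (2.49%) from there up to 5000, 33 of 405 (8.15%) up to 10000, 92 of 569 (16.2%) up to 20000 and 71 of 148 (48.0%) at 20000 or more. In PyMT it was 0 of 54, 0 of 38, 0 of 34, 6 of 34 (17.6%) and 1 of 2 barcodes over the same steps. In no step could the genotypes be told apart, since each PyMT interval spanned the Jagged1/PyMT share. In the steps under 10000 UMIs, without cycling PyMT barcodes, the PyMT intervals reached 6.60%, 9.25% and 10.3%. Among barcodes with at least 10000 UMIs the share was 163 of 717 (22.7%) in Jagged1/PyMT and 7 of 36 (19.4%) in PyMT, a ratio of 1.17 (0.593 to 2.30). With every barcode thinned to 2000 UMIs and shallower ones left out, 69 of 1564 (4.41%) were cycling in Jagged1/PyMT and 1 of 108 (0.926%) in PyMT, a ratio of 4.76 (0.668 to 34.0). PyMT macrophages were shallower, with a median of 3259 UMIs in the non-cycling class, against 6674 in Jagged1/PyMT, and the part of depth in the pooled difference cannot be told apart from that of genotype.

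**Figure D1:**
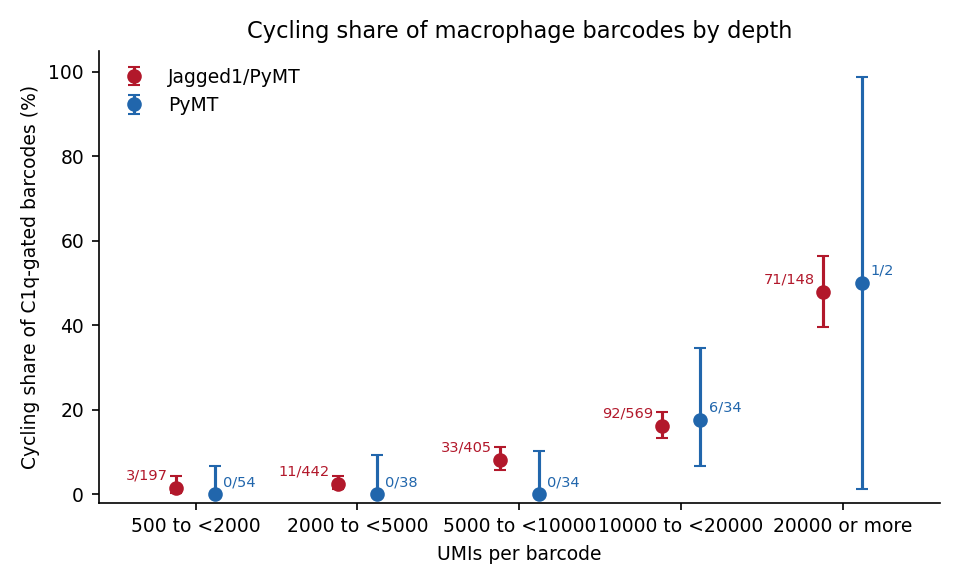
Share of C1q-gated macrophage barcodes that were cycling, in percent on the vertical axis, by UMIs per barcode on the horizontal axis, for Jagged1/PyMT (red) and PyMT (blue); bars are exact binomial 95% intervals and each point carries its counts. The Jagged1/PyMT share climbs from 1.52% to 48.0% with depth, and in every step the PyMT interval spans the Jagged1/PyMT point.

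The 7 PyMT barcodes fell into 2 strongly and 5 weakly marked cells. One had 30627 UMIs with 36 of Mki67 and Top2a, 169 of the mitosis lists and 291 of the histone list. Another had 18129 UMIs with 9, 61 and 270 of the same groups. The other 5 had between 12290 and 18672 UMIs, each with 2 Mki67 UMIs and 0 Top2a UMIs, and held between 1 and 8 mitosis UMIs and between 0 and 4 histone UMIs. Those 5 sat at the lower limit of the rule. Per UMI, their mitosis lists were at 230 CPM (134 to 367), against 167 CPM (127 to 215) in 25 non-cycling PyMT barcodes of at least 10000 UMIs. Of the 7, 4 held at least 5 mitosis UMIs, against 8 of the 147 non-cycling PyMT barcodes, at median depths of 15673 and 3259 UMIs. The Jagged1/PyMT barcodes were mostly above that limit. Mki67 was seen in 193 and Top2a in 159 of the 210, and 182 (86.7%) held at least 5 mitosis UMIs, against 122 of 1399 non-cycling barcodes (8.72%). The median depths of these classes were 16152 and 6674 UMIs, so a cut in UMIs favoured the cycling class. The non-cycling class is thus a class without detected Mki67 or Top2a, and some of its members carried other mitotic transcripts.

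In Jagged1/PyMT, genes of every stage of division were higher in cycling macrophages. The 10 lists of cycle genes with Mki67 and Top2a, 243 genes in all, took 2.32% of the UMIs in cycling barcodes and 0.597% in non-cycling ones. In PyMT the shares were 1.85% and 0.603%. UMIs were summed over each class, and a gene was counted as higher or lower past 1.5-fold where both classes held at least 50 UMIs together. Of 9304 such genes, 1236 were higher (13.3%) and 616 lower (6.62%) in cycling barcodes. Those counts shift to 935 and 858 with trimmed-mean scaling, which moves the median log2 ratio of all genes from 0.08 to -0.02. The cycling rule used this contrast, so the list counts below describe the cells and nothing is read from them against that background.

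**Figure D2:**
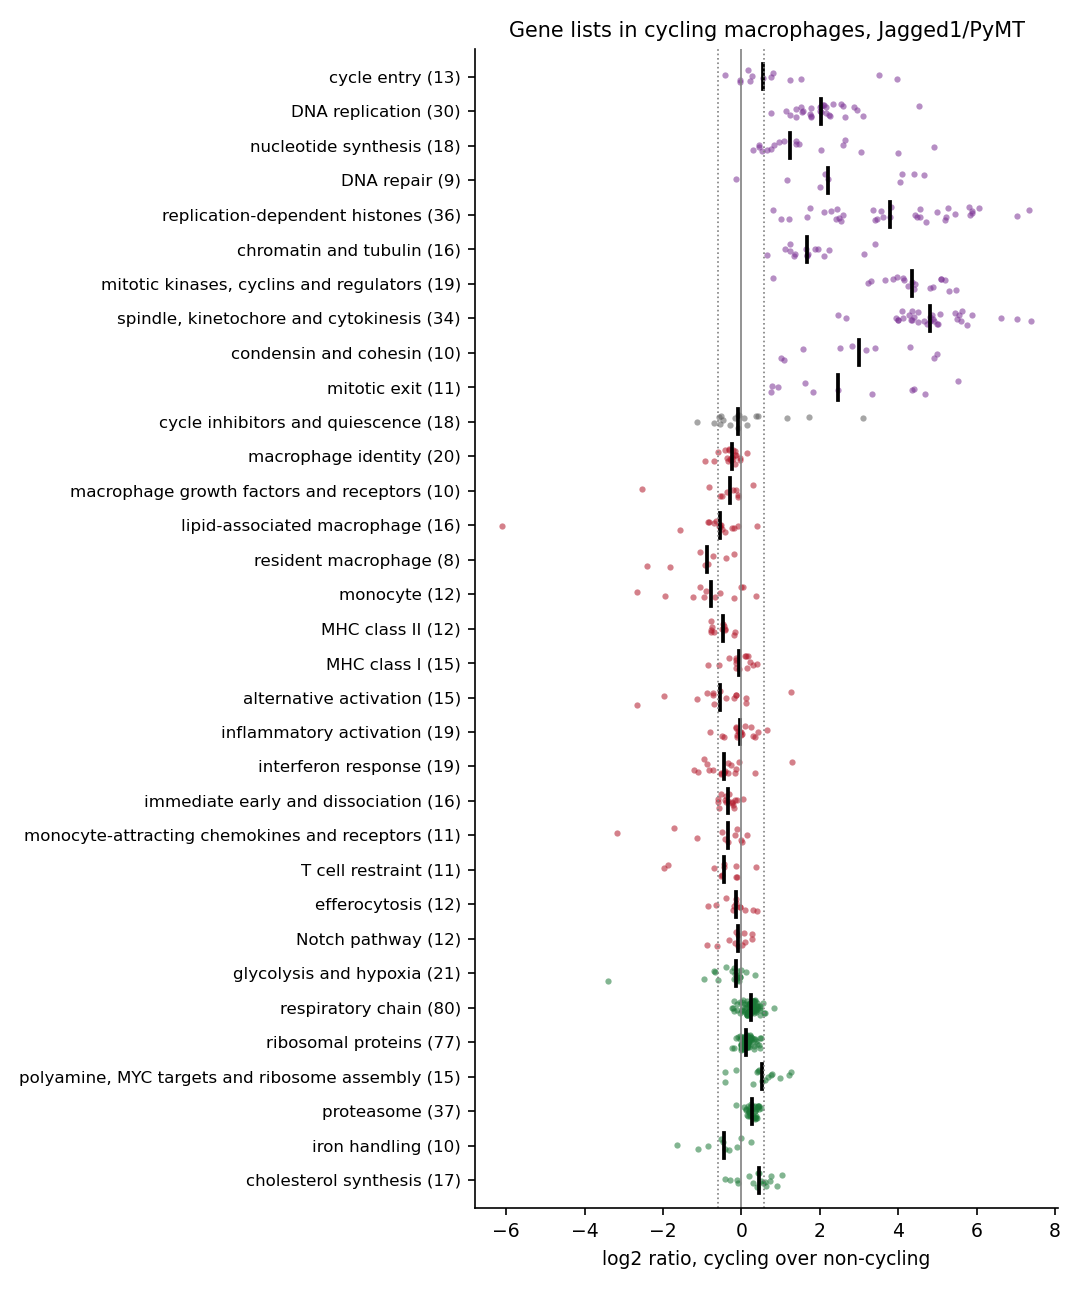
Log2 ratio of summed CPM, cycling over non-cycling macrophages in Jagged1/PyMT, for each measured gene (points) of the named lists, with the number of measured genes in brackets; the black bar is the list median and the dotted lines mark 1.5-fold. Replication, histone and mitosis genes lie to the right, with medians between 1.23 and 4.82, and most macrophage lists lie slightly to the left of 0.

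The entry genes changed least among the cycle groups. Of 13 measured of 16 listed, 6 were higher past 1.5-fold, with a list median of 0.55 on the log2 scale. Cyclin D1 (Ccnd1), which starts the cycle after growth factor signals, was at 69.6 CPM in cycling and 60.0 CPM in non-cycling barcodes, a log2 ratio of 0.21 (95% interval -0.00 to 0.43). Cyclin D3 (Ccnd3) was at 51.5 and 45.7 CPM, and the kinase Cdk6 at 32.2 and 33.2 CPM. The neighbouring steps differed more. Cdk4 was at 174 CPM in cycling and 99.5 CPM in non-cycling barcodes, Cdk2 at 19.5 and 8.28 CPM, and cyclin E1 (Ccne1), its partner at the start of replication, at 15.3 and 0.98 CPM (log2 ratio 3.96, interval 3.01 to 5.05). The cycle transcription factor E2f8 was at 29.4 and 2.58 CPM, whereas the growth regulator Myc was at 27.2 and 35.98 CPM.

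All 30 measured DNA replication genes of 32 listed were higher past 1.5-fold, with a median log2 ratio of 2.04. The helicase subunits Mcm3 and Mcm6 were at 91.1 and 90.5 CPM in cycling barcodes, against 30.4 and 22.4 CPM in non-cycling ones. The polymerase clamp Pcna was at 132 against 59.5 CPM (log2 ratio 1.15, interval 0.97 to 1.32), a smaller ratio than that of Uhrf1, which guides DNA methylation to new strands, at 42.1 against 4.90 CPM (3.105, 2.65 to 3.58). The checkpoint adaptor Clspn reached a log2 ratio of 4.54. Nucleotide supply moved in the same direction, with 14 of 18 genes higher (median 1.23). Rrm2, the cycle-bound subunit of ribonucleotide reductase, was at 107 against 3.56 CPM, thymidine kinase Tk1 at 106 against 6.59 CPM, and thymidylate synthase Tyms at 104 against 12.7 CPM. Of 9 measured repair genes of 16 listed, 8 were higher, with Brca1, which acts in the repair of broken DNA, at 17.5 against 1.07 CPM.

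All 36 measured replication-dependent histone genes of 67 listed were higher, with a median log2 ratio of 3.80. Hist1h2ap was at 1176 CPM in cycling and 20.9 CPM in non-cycling barcodes (log2 ratio 5.81, 5.62 to 6.01) and was seen in 140 and 148 barcodes of the classes. The linker histone Hist1h1b was at 144 against 2.14 CPM. Hist1h1c and Hist1h2bc differed far less, at 128 against 63.8 CPM and 95.6 against 54.2 CPM. Histone genes lie in clusters of near-identical copies whose reads may be split by counting, and most of their messages have no poly(A) tail, so levels of single copies are uncertain here. After thinning to 2000 UMIs the histone median was 1.85, and Hist1h2bc, at 0.41, was within 1.5-fold. All 16 chromatin and tubulin genes were also higher, among them the variant histone H2afz (2634 against 810 CPM), the chromatin protein Hmgb2 (898 against 209 CPM), the tubulin Tuba1b (1632 against 447 CPM) and the microtubule regulator Stmn1 (216 against 20.3 CPM).

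All 19 measured mitotic kinases, cyclins and regulators of 21 listed were higher (median 4.34), as were all 34 spindle, kinetochore and cytokinesis genes (median 4.82), all 10 condensin and cohesin genes (median 2.997) and all 11 genes of mitotic exit (median 2.47). Cyclin A2 (Ccna2) was at 141 CPM in cycling and 3.56 CPM in non-cycling barcodes (log2 ratio 5.30, 4.84 to 5.81), and cyclin B1 (Ccnb1) at 60.8 and 1.78 CPM (5.09, 4.43 to 5.83). The survivin gene Birc5, part of the complex that corrects spindle attachment, was at 266 and 9.44 CPM and was seen in 157 of 210 and 64 of 1399 barcodes. Its partners Aurkb, Cdca8 and Incenp were at 67.6, 136 and 127 CPM in cycling barcodes, against 3.12, 6.68 and 20.04 CPM in non-cycling ones. Polo-like kinase Plk1 was at 48.6 and 1.34 CPM, and the kinetochore protein Cenpf at 79.2 and 1.34 CPM. Bub3, a checkpoint protein of the kinetochore, had a low ratio among the kinases and regulators (0.81, at 118 and 67.4 CPM). The condensin subunits Smc2 and Smc4 were at 122 and 166 CPM in cycling barcodes, against 11.4 and 23.5 CPM in non-cycling ones. Of the exit genes, Cdc20 and Ube2c, which tag mitotic proteins for destruction, were at 59.7 and 254 CPM, against 2.32 and 12.4 CPM. Thinning and depth moved these medians, to 3.55 for the kinases, 3.76 for the spindle genes, 1.82 for condensin and 1.68 for exit after thinning, and to 5.49 for the spindle genes among barcodes of at least 10000 UMIs. In that deep set the log2 ratios of Ccna2 and Ccnb1 were 6.62 and 6.76, and that of Birc5 was 5.89, against 3.75 after thinning.

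The promoters of a replication pair and a mitosis pair are shown as examples of the 2 stages by which the cycling cells are described next. The sequences are RefSeq windows (GRCm38.p6) from 250 bases before to 50 bases after the start of each gene, on the strand of the gene, with motif letters in capitals. Plk1 is at chr7:122159185-122159484 (plus strand), Cdc20 at chr4:118437294-118437593 (minus), Mcm3 at chr1:20820263-20820562 (minus) and Mcm6 at chr1:128359656-128359955 (minus).
Plk1: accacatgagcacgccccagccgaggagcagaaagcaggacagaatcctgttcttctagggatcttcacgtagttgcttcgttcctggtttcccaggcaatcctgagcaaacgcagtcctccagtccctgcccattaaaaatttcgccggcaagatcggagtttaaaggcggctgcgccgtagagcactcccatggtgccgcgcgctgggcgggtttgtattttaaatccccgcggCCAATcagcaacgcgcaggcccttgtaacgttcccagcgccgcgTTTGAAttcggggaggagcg
Cdc20: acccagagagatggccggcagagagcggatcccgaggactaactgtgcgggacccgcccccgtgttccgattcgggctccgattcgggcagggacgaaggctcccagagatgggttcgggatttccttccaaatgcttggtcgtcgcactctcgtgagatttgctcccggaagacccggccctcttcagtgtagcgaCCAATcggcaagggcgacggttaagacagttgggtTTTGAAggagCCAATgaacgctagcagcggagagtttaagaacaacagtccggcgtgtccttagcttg
Mcm3: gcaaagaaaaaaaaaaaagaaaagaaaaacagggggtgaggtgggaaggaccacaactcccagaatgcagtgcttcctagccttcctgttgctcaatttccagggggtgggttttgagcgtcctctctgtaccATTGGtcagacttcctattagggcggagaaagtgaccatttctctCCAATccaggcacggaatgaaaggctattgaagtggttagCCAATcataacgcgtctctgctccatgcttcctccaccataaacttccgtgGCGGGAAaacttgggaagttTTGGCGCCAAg
Mcm6: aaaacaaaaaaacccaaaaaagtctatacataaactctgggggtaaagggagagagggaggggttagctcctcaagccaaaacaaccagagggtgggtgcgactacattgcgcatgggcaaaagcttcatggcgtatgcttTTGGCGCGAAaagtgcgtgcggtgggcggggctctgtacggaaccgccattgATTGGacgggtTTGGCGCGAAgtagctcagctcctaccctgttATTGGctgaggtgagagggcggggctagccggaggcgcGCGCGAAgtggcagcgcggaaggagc
Capitals mark TTTGAA, the letters of the CHR element, the CCAAT box, and 3 forms of E2F letters on either strand. The first form is TTCCCGC. The second form is TTGGCGC. The third form is TTCGCGC, and matches of the forms can overlap each other. Plk1 holds CCAAT 14 to 10 bases upstream of its start and TTTGAA from base 31 downstream. Cdc20 holds TTTGAA 18 to 13 bases upstream, between CCAAT boxes at 53 to 49 and 8 to 4 bases upstream. Mcm3 and Mcm6 hold no TTTGAA, and E2F letters stand 20, 40 and 43 bases downstream in Mcm3 and at 109 to 100 and 46 to 37 bases upstream and 25 bases downstream in Mcm6. CCAAT, on either strand, stands 117 to 113, 72 to 68 and 32 to 28 bases upstream in Mcm3. In Mcm6 it stands 57 to 53 and 14 to 10 bases upstream. Over 27025 genes with a window, TTTGAA was in 18.11%, CCAAT in 37.92% and E2F letters in 8.207%. Of the 29 spindle genes with a window, 22 (75.86%) held TTTGAA, 20 (68.97%) CCAAT and 5 (17.24%) E2F letters, and of the 16 mitotic kinase genes the counts were 8, 12 and 3. Of the 27 DNA replication genes with a window, 4 (14.81%) held TTTGAA, 18 (66.67%) CCAAT and 17 (62.96%) E2F letters. E2F letters were in 4 of 17 nucleotide synthesis genes (23.53%) and in 5 of 7 condensin and cohesin genes (71.43%). Over the macrophage lists, CCAAT ranged from 0 of 9 genes of T cell restraint to 11 of 13 MHC class I genes (84.62%). A match is a description of these letters only.

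The 210 Jagged1/PyMT cycling barcodes spread over the replication and mitosis sums, and some were low in both. Summed per barcode, the replication and nucleotide lists ranged between 206 and 8197 CPM (median 1691), the mitosis lists between 0 and 13466 CPM (median 3074) and the histone list between 0 and 33786 CPM (median 1077). Across the 210 barcodes, Spearman's rho was 0.16 between replication and mitosis, 0.29 between replication and histones and 0.53 between mitosis and histones. It was 0.75 between mitosis and Mki67 with Top2a, the genes that the rule used. These points share a library and their depth enters both measures. Setting each sum against its own mean split the barcodes into 103 that led in replication and 107 that led in mitosis, at median depths of 16112 and 16192 UMIs. The split placed every barcode, also those low in both sums. A barcode at 206 CPM in replication and 0 in mitosis, for example, counts as replication-leading.

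**Figure D3:**
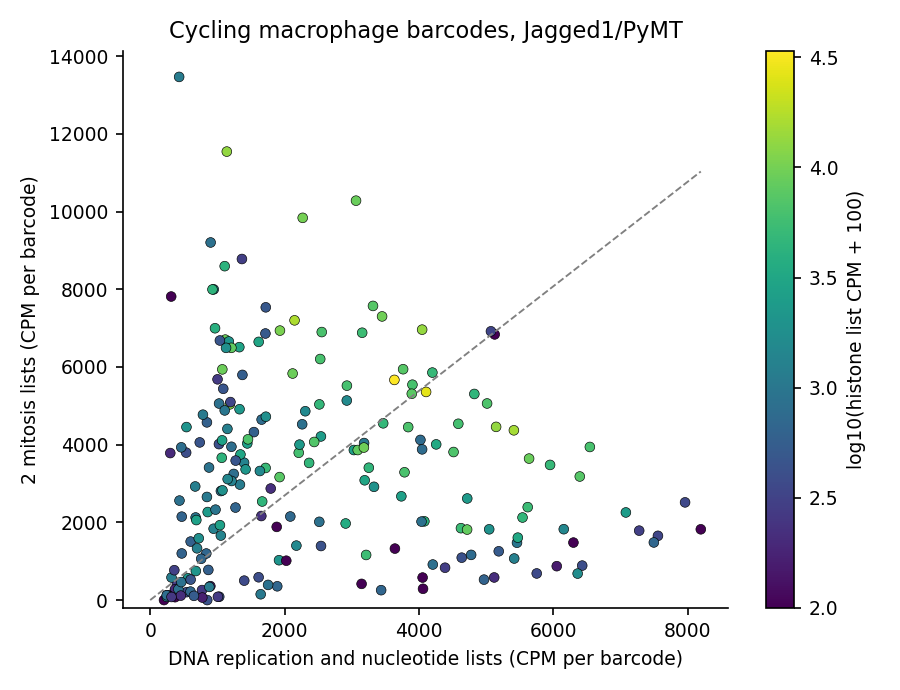
Each point is 1 of the 210 cycling Jagged1/PyMT barcodes, with the summed CPM of the replication and nucleotide lists on the horizontal axis, that of the mitosis lists on the vertical axis and the histone list as colour on a log10 scale; the dashed line parts replication-leading (below) from mitosis-leading (above) barcodes. Barcodes spread along both axes and between them, and a group near the origin is low on both.

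The split used the replication and mitosis lists, so their genes are given as values only. Mcm6 was at 157 CPM in replication-leading and 25.2 CPM in mitosis-leading barcodes, and Cdc20 at 11.4 and 107 CPM. Cyclin E1 was outside the lists that made the split and followed the replication side, at 29.1 CPM (21.7 to 38.3) in replication-leading and 1.68 CPM (0.346 to 4.91) in mitosis-leading barcodes. Cyclin D1 was also higher there, at 86.3 CPM (73.1 to 101) against 53.2 CPM (43.0 to 65.0). Hist1h2ap was at 1052 and 1298 CPM in the same order. Macrophage genes differed by member. C1qa was at 3954 and 4025 CPM, Csf1r at 642 CPM (605 to 681) in replication-leading and 753 CPM (713 to 794) in mitosis-leading barcodes, and the antigen presentation gene H2-Aa at 5935 and 4169 CPM. The part of barcodes low in both sums in these differences was not tested.

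Among cycle inhibitors and quiescence genes, 3 of 18 measured of 21 listed were higher, 2 were lower and the median was -0.08. The 3 that were higher are themselves known to be made in dividing cells. Cdkn2c, which blocks Cdk4 and Cdk6, was at 39.0 CPM in cycling and 4.54 CPM in non-cycling barcodes (log2 ratio 3.103, 2.63 to 3.60), Cdkn2d of the same family at 48.1 and 21.4 CPM, and the retinoblastoma relative Rbl1 at 17.8 and 5.34 CPM. The p21 inhibitor Cdkn1a was at 370 and 352 CPM, with a log2 ratio of 0.07 (-0.02 to 0.16). The quiescence factor Klf4 was lower, at 68.2 and 149 CPM, while its relative Klf2, at 594 and 865 CPM, was within 1.5-fold. Outside the lists, the genes with the highest ratios were again of division, with Pclaf, a partner of the polymerase clamp, at 298 and 10.5 CPM, the cytokinesis genes Cep55, Cit and Shcbp1 at log2 ratios of 5.13, 5.46 and 5.44, and the histone chaperone Asf1b at 65.9 and 4.63 CPM.

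Most macrophage identity genes of cycling macrophages were within 1.5-fold of non-cycling ones, and some antigen presentation, lipid-associated and resident macrophage genes were lower per UMI. None of 20 macrophage identity genes was higher and 3 were lower past 1.5-fold, with a median log2 ratio of -0.25. The growth factor receptor Csf1r was at 698 CPM in cycling and 771 CPM in non-cycling barcodes (-0.14, -0.21 to -0.08), the chemokine receptor Cx3cr1 at 484 and 434 CPM, and the signalling adaptor Tyrobp at 2385 and 2982 CPM. Among the lower genes were lysozyme Lyz2 (2581 against 4898 CPM, -0.92) and the membrane protein Ms4a7 (724 against 1172 CPM, -0.69).

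Of 12 MHC class II genes 5 were lower and none was higher, with a median of -0.48. The invariant chain Cd74 was at 17831 CPM in cycling and 30453 CPM in non-cycling barcodes (-0.77, -0.78 to -0.76), H2-Aa at 5043 and 8405 CPM (-0.74, -0.76 to -0.71), and H2-Ab1 at 3194 and 5222 CPM (-0.71). MHC class I differed less, with 1 of 15 genes lower past 1.5-fold. That gene was Nlrc5, a regulator of class I genes, on 11 UMIs in cycling and 63 UMIs in non-cycling barcodes (-0.85, -1.92 to 0.09, but -0.26 after thinning). H2-D1 was at 1924 and 2840 CPM, within 1.5-fold, and the light chain B2m at 1046 and 1142 CPM. The class II difference moved with depth. Above 22332 UMIs, the 95th percentile of the gate, the class II list summed to 19127 CPM in 53 cycling barcodes and 19026 CPM in 25 non-cycling ones. At or below that depth it summed to 39022 CPM in 157 cycling barcodes and 51830 CPM in 1374 non-cycling ones. There the log2 ratios were -0.45 for Cd74, -0.41 for H2-Aa and -0.39 for H2-Ab1, all within 1.5-fold. Apoe, the lipid carrier, was at 9786 CPM in cycling and 17330 CPM in non-cycling barcodes (-0.82, -0.84 to -0.81). Above the 95th percentile it was at 6747 and 13419 CPM, and at or below it at 11979 and 17573 CPM (-0.55, within 1.5-fold).

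The step in these genes lay between the class of 2 and the class of 3 to 9 Mki67 and Top2a UMIs. Over barcodes with 0, 1, 2, 3 to 9 and at least 10 such UMIs (1399, 152, 54, 78 and 78 barcodes), the MHC class II list summed to 49913, 45294, 48142, 27411 and 26775 CPM. Apoe was at 17330, 14038, 15923, 9080 and 8082 CPM over the same classes. Barcodes just inside the limit of the cycling rule, at 2 UMIs, thus stood near those just outside it. The mitosis lists climbed at each step, at 238, 618, 1209, 2275 and 4802 CPM, and the histone list at 288, 406, 682, 1203 and 5035 CPM. C1qa was at 4754, 4492, 4890, 4001 and 3654 CPM, and Csf1r at 771, 713, 779, 690 and 675 CPM. Among barcodes with at least 10000 UMIs, MHC class II was at 44896, 44225, 48629, 26233 and 26480 CPM over 473, 81, 29, 61 and 73 barcodes. Their median depth still rose over these classes, at 13868, 15065, 15465, 17761 and 22332 UMIs. The last of these equals the cut above which class II was at like levels in cycling and non-cycling barcodes. The part of depth in the step was not tested.

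**Figure D4:**
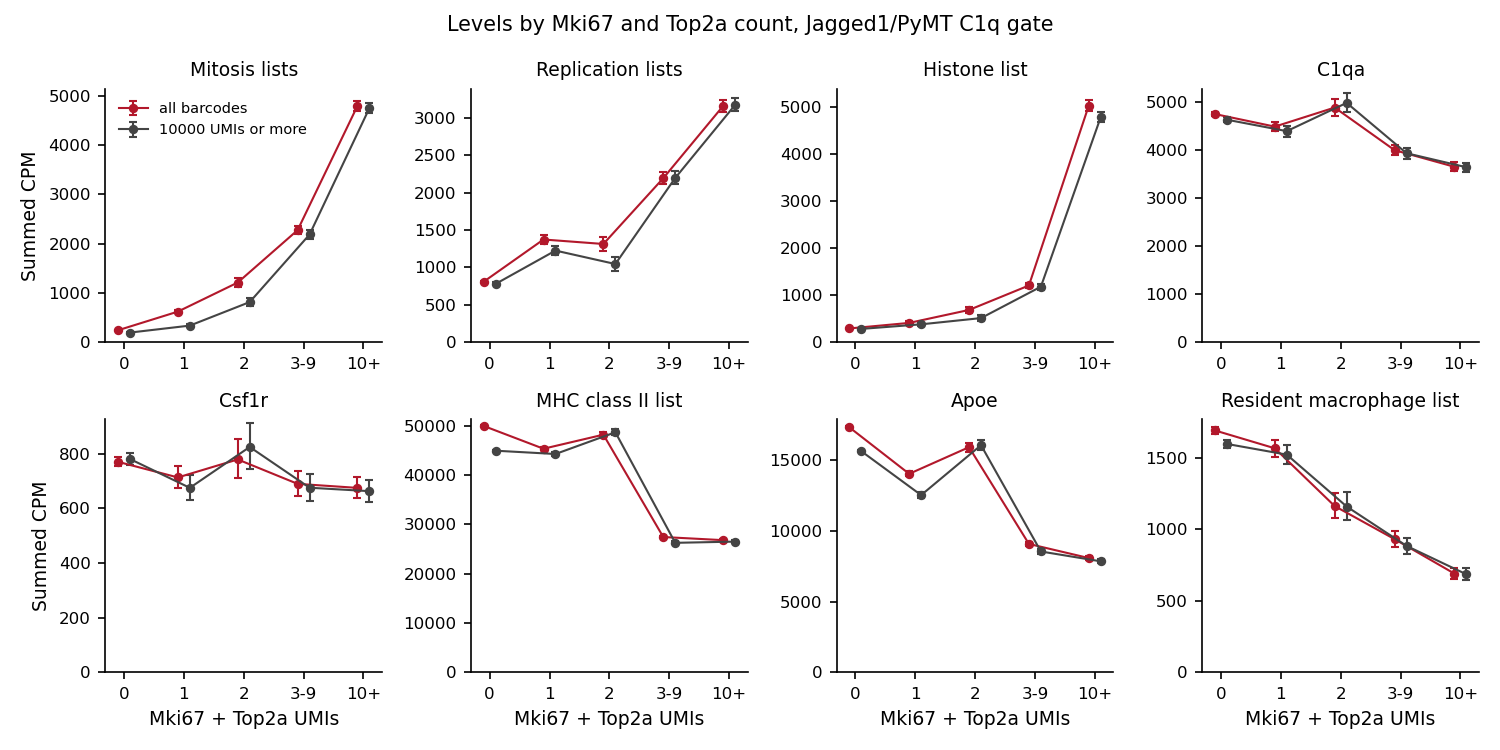
Summed CPM of 3 cycle groups, the C1qa, Csf1r and Apoe genes, the MHC class II list and the resident macrophage list (vertical axes from 0) in C1q-gated Jagged1/PyMT barcodes, by the number of Mki67 and Top2a UMIs (horizontal axes); red, all barcodes; grey, those with at least 10000 UMIs; bars are exact Poisson 95% intervals. Mitosis genes climb at every step, MHC class II and Apoe drop between 2 and 3 to 9 UMIs, and Csf1r stays between 663 and 825 CPM.

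Some genes of other macrophage lists were also lower. Of 16 genes of lipid-associated macrophages 6 were lower and none higher (median -0.55), among them the lysosomal protease Ctsl (86.8 against 257 CPM, -1.57), the fatty acid binder Fabp5 (228 against 412 CPM) and the phosphatase Acp5 (268 against 430 CPM). Gpnmb, a membrane glycoprotein of lipid-laden macrophages, had 1 UMI in cycling and 219 in non-cycling barcodes, but the 219 came from 24 barcodes. Of the resident macrophage genes, 6 of 8 measured of 16 listed were lower (median -0.88). Selenoprotein P (Selenop) was at 665 against 1379 CPM (-1.05, -1.11 to -0.99), the TAM receptor ligand Gas6 at 31.4 against 56.7 CPM, the carbonyl reductase Cbr2 at 6.50 against 22.98 CPM and the folate receptor Folr2 at 10.5 against 19.8 CPM. The chemokine Pf4, at 31.4 against 51.7 CPM, was within 1.5-fold in 4 of the alternatives tried. The resident list summed to 1692, 1567, 1163, 932 and 691 CPM over the Mki67 and Top2a classes, lower at each step. Without the deepest barcodes the log2 ratio of Acp5 was -0.49, and after thinning that of Folr2 was -0.52, both within 1.5-fold. Of 12 monocyte genes 7 were lower (median -0.78, but -0.57 among barcodes of at least 10000 UMIs and -0.50 with at least 20 C1q UMIs). Heme oxygenase Hmox1, at 238 against 430 CPM, was carried by deep non-cycling barcodes, since its log2 ratio was -0.07 without the barcodes above the 95th percentile.

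Inflammatory genes differed little. Of 19 measured, 1 was higher and 1 lower (median -0.04), with interleukin 1 beta (Il1b) at 3411 CPM in cycling and 3756 CPM in non-cycling barcodes and the neutrophil chemokine Cxcl2 at 3972 and 4137 CPM. Of 19 interferon response genes, 6 were lower and 1 higher (median -0.43). The regulator Irf7 was at 73.0 and 133 CPM and the antiviral enzyme Rsad2 at 26.0 and 59.9 CPM, while the T cell chemokine Cxcl10 was at 243 and 99.7 CPM (1.29, 1.16 to 1.41) in 76 of 210 and 135 of 1399 barcodes. Of 11 monocyte-attracting chemokines and receptors 3 were lower. They were Ccl6 (124 against 272 CPM), Ccl7 (30.5 against 101 CPM, in 15 and 78 barcodes) and Ccl8 (3.68 against 33.1 CPM, in 10 and 132 barcodes), while Ccl2 was at 240 and 237 CPM. After thinning, the log2 ratio of Ccl6 was -0.56, within 1.5-fold, and that of Ccl7 was -3.01, against -1.73 before. Arginase (Arg1), known for alternative activation, rested on 6 cycling and 38 non-cycling barcodes, at 8.20 and 32.3 CPM.

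Of 12 measured Notch pathway genes, 2 were lower and none higher (median -0.09). The receptor Notch2 was at 15.3 CPM in cycling and 19.2 CPM in non-cycling barcodes, the nuclear effector Rbpj at 67.6 and 64.7 CPM and the sheddase Adam10 at 67.6 and 55.6 CPM. The Notch ligand Jag1, named in the genotype, had 21 UMIs in 14 of 210 cycling barcodes (6.67%) and 122 UMIs in 93 of 1399 non-cycling ones (6.65%). It was also seen in 9.04% of the T cell gate of the same library, at a lower median depth (3846.5 UMIs). These shares are thus not read as expression particular to macrophages. In PyMT, Jag1 was seen in 1 of 7 cycling and 7 of 147 non-cycling barcodes (4.76%), against 0.124% of the T cell gate. The T cell share thus differed between the libraries and is not a settled background for this gene. In free RNA, Jag1 was at 15.1 CPM in Jagged1/PyMT and 6.19 CPM in PyMT. The 21 and 122 Jag1 UMIs of Jagged1/PyMT lay among 3536091 cycling and 11227284 non-cycling UMIs. Both are lower levels per UMI than in the free RNA of that library. The cycling PyMT barcodes held 2 Jag1 UMIs among 122821, a higher level than in PyMT free RNA, in 1 barcode. In Jagged1/PyMT the log2 ratio of Jag1 was -0.87 and turned to 0.13 after thinning.

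Growth and supply groups differed among themselves. Of 15 polyamine, MYC target and ribosome assembly genes, 7 were higher (median 0.53), with the nucleolar proteins Nop58 at 112 against 48.1 CPM and Nop56 at 73.0 against 37.1 CPM. Nucleolin (Ncl), at 396 against 248 CPM, was within 1.5-fold under trimmed-mean scaling (0.57) and without the deepest barcodes (0.55). Of 17 cholesterol synthesis genes 6 were higher (median 0.46), among them the squalene synthase Fdft1, at 16.7 against 8.19 CPM. Of 80 respiratory chain genes 2 were higher (median 0.25), of 77 ribosomal protein genes and 37 proteasome genes none passed 1.5-fold in either direction (medians 0.12 and 0.27), and of 21 glycolysis and hypoxia genes 5 were lower (median -0.14). The glycolytic enzymes Eno1, Ldha and Pkm had log2 ratios of -0.03, -0.01 and -0.19.

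Markers of neutrophils, epithelium and T cells summed to lower levels per UMI in cycling than in non-cycling barcodes, while more of the deeper cycling barcodes held at least 3 UMIs of some lists. Neutrophil markers summed to 2209 CPM in cycling and 3377 CPM in non-cycling barcodes, with none of 10 at 0 in either class, and 23 of 210 (11.0%) and 141 of 1399 (10.1%) held at least 3 such UMIs. Epithelial markers summed to 34.8 and 175 CPM, with 3 of 10 at 0 in cycling and 1 in non-cycling barcodes, T cell markers to 123 and 143 CPM, and B cell markers to 77.2 and 66.0 CPM. At least 3 T cell marker UMIs were in 26.2% of cycling and 12.1% of non-cycling barcodes, 3 B cell marker UMIs in 17.1% and 4.50%, and 3 mature dendritic marker UMIs in 20.5% and 8.01%, at median depths of 16152 and 6674 UMIs. The mammary epithelial gene Wfdc18 was at 1.98 and 63.0 CPM, and 1 non-cycling barcode held 84.9% of its 707 UMIs there. The granule gene Ngp of neutrophils was at 11.0 and 70.4 CPM in 3 and 12 barcodes, and its log2 ratio of -2.67 was -0.73 among barcodes with no T or B cell UMI. The heat shock gene Hspb1 was at 2.26 and 35.9 CPM. Without the barcodes that held at least 3 UMIs of chosen neutrophil, epithelial or lymphocyte genes, an alternative chosen after the data were seen, the log2 ratios of Wfdc18 and Hspb1 were -1.57 and -2.88, against -4.99 and -3.99 before, while those of Cd74 and H2-Ab1 were -0.75 and -0.67.

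The 36 cycling barcodes of the Jagged1/PyMT T cell gate gave a second dividing cell type at like depth (median 15897.5 UMIs), and this comparison was chosen after the data were seen. It rests on 1 library and on few T cells. Of 6831 genes with at least 50 UMIs, 1908 were higher (27.9%) and 1605 lower (23.5%) past 1.5-fold in cycling macrophages, so a difference between these cell types was common. Entry genes differed by member. Cyclin D1 was at 69.6 CPM in cycling macrophages and 6.82 CPM in cycling T cells (log2 ratio 3.35, 1.98 to 5.24). Cyclin D3 was at 51.5 and 264 CPM (-2.36, -2.68 to -2.04), cyclin D2 (Ccnd2) at 22.6 and 66.5 CPM (-1.55), and Cdk6 at 32.2 and 136 CPM (-2.08), whereas Cdk4 was at 174 and 211 CPM. Cyclin E1 was at 15.3 and 63.0 CPM (-2.05), and Cdkn1a at 370 and 106 CPM (1.81). Among the D cyclins, Cdk6, Ccne1 and Cdkn1a the directions held after thinning to 2000 UMIs, but the log2 ratios were then 2.28 for Ccnd1, -2.85 for Ccnd2 and -0.94 for Ccne1. Replication genes were lower in the macrophages, with 25 of 30 past 1.5-fold (median -1.21) and Pcna at 132 and 295 CPM. Mitosis genes differed less, with 10 of 34 spindle genes and 6 of 19 mitotic kinases lower (medians -0.24 and -0.31). Cyclin B1, named after its value was seen, was at 60.8 and 54.5 CPM.

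**Figure D5:**
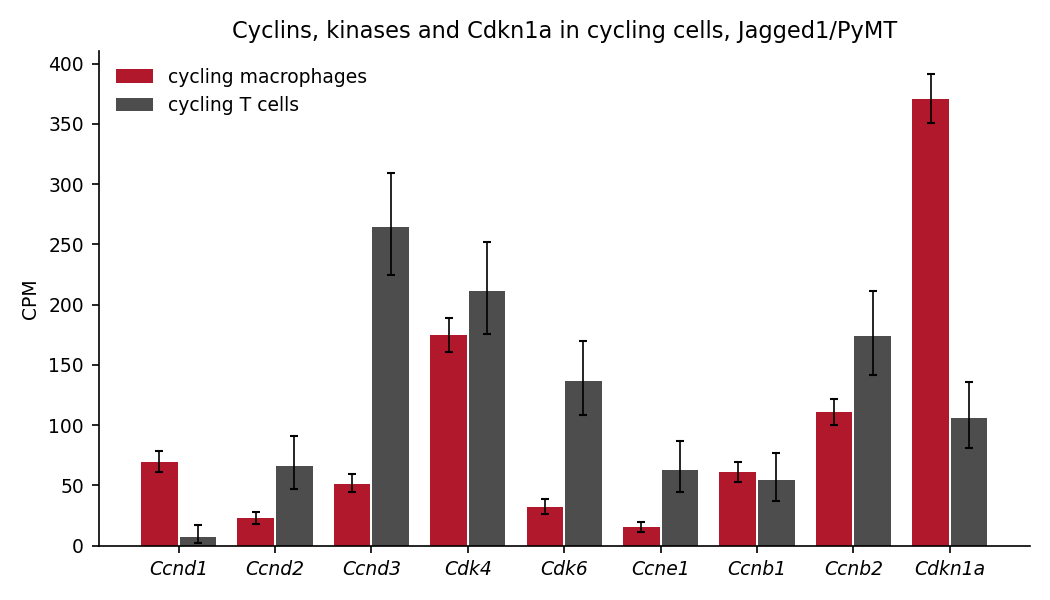
Level in CPM (vertical axis from 0) of cyclins, cyclin-dependent kinases and Cdkn1a in 210 cycling macrophages (red, left bars) and 36 cycling T cells (grey, right bars) of the Jagged1/PyMT library; bars are exact Poisson 95% intervals. Ccnd1 and Cdkn1a stand higher in the macrophages, Ccnd2, Ccnd3, Cdk6 and Ccne1 in the T cells, and the Cdk4 and Ccnb1 intervals overlap.

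In PyMT the same contrast rested on 7 cycling barcodes with 122821 UMIs in all. Of 2261 genes, 327 were higher (14.5%) and 372 lower (16.5%) past 1.5-fold. Apoe was at 12742 CPM in cycling and 23854 CPM in non-cycling barcodes (-0.90), H2-Aa at 7442 and 12833 CPM (-0.79) and Cd74 at 24572 and 38466 CPM (-0.65). Without the barcodes above the 95th percentile of UMIs the log2 ratios of Cd74 and H2-Aa were 0.05 and -0.03. That cut left 4 of the 7 cycling barcodes and removed those of 30627 and 18129 UMIs, the strongly marked ones. The 4 held 11 mitosis UMIs (199 CPM), against 288 CPM in the non-cycling barcodes under the same cut. The barcode of 30627 UMIs stood far below the others. Its class II list summed to 2057 CPM and its Apoe to 2286 CPM, whereas the barcode of 18129 UMIs had 51023 and 20409 CPM and the other 5 together had 54844 and 15189 CPM. Csf1r was at 1075 and 888 CPM (0.27). Of 9 measured MHC class II genes 5 were lower and none higher (median -0.59, but -0.07 without the barcodes above the 95th percentile).

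Between the genotypes, cycling macrophages of Jagged1/PyMT and PyMT could be compared only as 210 barcodes against 7, and 1 barcode could set a PyMT value. Of 6359 genes, 1641 were higher (25.8%) and 1104 lower (17.4%) past 1.5-fold in Jagged1/PyMT. A gene with no PyMT UMI was set to 3 counts, which are 24.4 CPM over the 7 barcodes. A gene seen only in Jagged1/PyMT at a low level could thus be counted as lower there, and the lower count may hold such genes. Complement genes were close, with C1qa at 3990 CPM in Jagged1/PyMT and 4747 CPM in PyMT, while Csf1r was at 698 and 1075 CPM (-0.62, but -0.55 and within 1.5-fold under trimmed-mean scaling). Cxcl1, a neutrophil chemokine, was at 428 and 2003 CPM (-2.23), and all 7 PyMT barcodes held it. Fibronectin (Fn1) was at 156 and 708 CPM, but 1 barcode held 93.1% of the PyMT UMIs, and for the growth factor Areg, at 14.4 and 350 CPM, 1 barcode held 95.3%. The langerin gene Cd207, at 39.0 and 407 CPM, had 80% of its PyMT UMIs in 1 barcode. The heat shock gene Hspa1a was at 273 and 8.14 CPM, with 965 UMIs and 1 UMI (log2 ratio 5.07, but 0.81 after thinning), and the interferon-induced Ifi27l2a at 401 and 40.7 CPM (3.30). In the non-cycling classes, where PyMT had 147 barcodes, 15.6% of 8795 genes were higher and 9.04% lower in Jagged1/PyMT, and the log2 ratios were -0.15 for Cxcl1, 0.49 for Fn1, 1.65 for Areg and 0.82 for Ifi27l2a. Interferon response genes had a median of 1.14 in cycling barcodes (8 of 14 higher, 2 lower) and 1.06 in non-cycling ones, but 0.05 in cycling barcodes with at least 5 Mki67 and Top2a UMIs. The MHC class II medians were -0.45 in cycling and -0.43 in non-cycling barcodes, but 0.33 in cycling barcodes at that limit. The medians of DNA replication (0.59) and spindle genes (0.71) in cycling barcodes turned below 0 with a limit of 5 Mki67 and Top2a UMIs, which leaves 2 PyMT barcodes. At that limit the log2 ratios of Areg and Cd207 were -0.12 and -0.46, against -4.60 and -3.38 before.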

How the data were processed

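Both deposited matrices give raw, unscaled UMI counts, written by Cell Ranger 3.0.2, as the file headers state (per the file headers; the submitters' processing notes name the same tool). The labels give the kit as v3.1 with 8000 cells loaded, whereas the matrices list 737280 barcodes each, so they were not filtered for cells. Genome build, aligner and annotation were not given in the sources used here. Symbols of the 31053 features were used. The 2 samples of a genotype share 1 matrix and were treated as 1 library.

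Barcodes were chosen by the limits given above, with no doublet caller; doublets were treated by the limits on T and B cell genes and by leaving out barcodes above the 95th percentile of UMIs. UMIs were summed per library and class and divided by the class total (CPM). Levels have exact Poisson, ratios exact conditional binomial, shares exact Clopper-Pearson and share ratios log-normal 95% intervals. They cover counting error only. No p-value is given, since cells are not replicates and each genotype is 1 library. A gene at 0 was set to a floor of 3 counts. Genes needed 50 UMIs over both classes. Thinning drew 2000 UMIs per barcode (seed 1). The members and the 45 gene lists were chosen with earlier results of these data known. Named genes were up to 5 of highest level and 5 of largest ratio per list, the 12 per direction (outside the cycle lists for cycling against non-cycling) whose interval bound lay farthest from 0 with at least 100 UMIs and 10 barcodes (30 and 5 between genotypes), the genes of the rule, Csf1r, Jag1, Notch1, Notch2, Myc and Maf. Some genes the rule names are not reported here. Mmp12, and Ccnb1 beside T cells, were named after their values were seen. Alternatives were other limits on depth, C1q, Mki67 and Top2a, T cell genes, mitochondrial share and gene UMIs, trimmed-mean and per-barcode mean scaling, and, added after the data were seen, leaving out barcodes with genes of other cells. Promoter windows are RefSeq's (GRCm38.p6). The ratio step was tested on simulated counts. Python 3.11.15, numpy 2.4.6, scipy 1.17.1 and pandas 2.3.3 were used.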

Additional observations from a re-analysis of the deposited data

Results flagged for a closer look

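The macrophage elastase gene Mmp12 drew attention because it stood on opposite sides of 0 in the genotypes when cycling barcodes were set against non-cycling ones. Its log2 ratio was -0.82 in Jagged1/PyMT (205 CPM in cycling and 362 CPM in non-cycling barcodes) and 1.83 in PyMT (643 and 181 CPM). With 1 library per genotype the difference was not tested. The PyMT cycling value rests on 79 UMIs, of which 57.0% lay in 1 of 7 barcodes. The PyMT log2 ratio was 0.92 without the barcodes above the 95th percentile of UMIs, which leaves 4 weakly marked cycling barcodes. With at least 5 Mki67 and Top2a UMIs it was 0.67. The Jagged1/PyMT value was -0.30 and -0.42 without the deepest barcodes and after thinning, within 1.5-fold.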

How the results depend on the processing

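The share of macrophages that were cycling moved under several alternatives. In Jagged1/PyMT it was 9.38% without barcodes above the 95th percentile of UMIs, 6.81% with a limit of 5 Mki67 and Top2a UMIs, 4.41% after thinning, 22.7% at 10000 UMIs or more and 20.4% when defined by mitosis genes instead. In PyMT it was 1.23%, 0.926% and 19.4% with the limit of 5, thinning and 10000 UMIs, and the ratio of shares was 1.17 at 10000 UMIs or more. Counts of genes past 1.5-fold in Jagged1/PyMT were 741 higher after thinning, 589 higher and 236 lower with at least 200 UMIs per gene, and 949 lower with at least 20. Between genotypes in cycling cells they were 1082 higher and 1704 lower with the limit of 5, 319 and 268 after thinning, 575 and 273 with 200 UMIs per gene, and 2493 lower with 20. Leaving out the deepest barcodes left 4 weakly marked cycling barcodes in PyMT. Under that cut, directions turned for Cd74 in PyMT (0.0499) and, between genotypes, for Fn1 (1.53) and the DNA replication median (-0.21). They also turned with the limit of 5 for the DNA replication (-0.25) and spindle medians (-0.20), after thinning for Jag1 (0.13) and the PyMT lipid-associated median (0.0736), and with 20 UMIs per gene for the interferon median between genotypes (-0.0574). The cause of these shifts was not tested. The floor can by itself put a gene seen only in Jagged1/PyMT on the lower side. The turn of the interferon median is therefore not read as a change of direction. Of 109 named genes called in the Jagged1/PyMT contrast, 93 stayed past 1.5-fold in every alternative run and 16 did not in at least 1. No paired analysis was possible because no barcode is tied to a sample.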
